A study of Mus musculus with 70 samples.

Results

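Voluntary wheel running and its return after a pause were compared at the level of RNA in the dorsal hippocampus. Of the 70 libraries of the series, 10 in each of 7 groups, 20 enter the contrast described here. They are the 10 libraries of 14-7-2 and the 10 of 14-0-0, taken by the group that each label gives. The name of a group holds its days of initial exercise, of sedentary delay and of reactivating exercise, so 14-0-0 mice ran for 14 days and 14-7-2 mice ran for 14 days, had no wheel for 7 days and ran for 2 more days. The first wheel access lay 14 days before the end of running in 14-0-0 and 23 days before it in 14-7-2, so the interruption, the length of the last running period and the total time since the first access cannot be told apart. In both groups the wheels were taken away on the evening before training. The mice of both groups were adult male C57BL/6J. They were trained in the object location memory (OLM) task for 3 min, a session too short to form long-term memory in sedentary mice, and tissue was taken 1 h later. In the study both schedules allow such training to form memory, and the contrast asks how far their transcriptomes differ from each other at that time. The distance run on the voluntary wheels varied between the groups of the study and is not used here. Each group holds 5 libraries from each of 2 harvest cohorts, taken 24 h apart within windows of 4 h.

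Running raises neurotrophic and metabolic factors in the rodent hippocampus, a structure that holds the position of objects in memory. In the first hours after training, neurons transcribe immediate early genes, then effector genes such as Bdnf, whose product acts on synapses. Acvr1c codes for ALK7, a type I receptor of the activin and TGF-beta family, which signals through Smad proteins in the nucleus. Whole dissected tissue holds neurons, glia, vessels and, depending on the cut, some choroid plexus and neocortex. In such bulk samples fewer cells of a type and less RNA per cell cannot be told apart.

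Values are FPKM, fragments counted on a gene relative to its transcript length and to the mapped total of the library. The table holds no read counts, so the absolute depth behind a value is unknown. A relative depth, read from the step between low FPKM values and set to 1 in 14-0-0 replicate 0, ran from 0.522 (replicate 1) to 2.12 in 14-0-0 and from 1.09 to 1.82 in 14-7-2. Between 6243 and 7199 of the 24346 genes listed were at 0 FPKM in a library of 14-0-0, and between 6389 and 6778 in a library of 14-7-2. No 2 of the 20 libraries held identical values. Differences are given as log2 of FPKM + 0.1, 14-7-2 minus 14-0-0, and a gene is called where limma's moderated test gave an unadjusted p under 0.05, the criterion used in the study.

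Few genes set the 2 schedules apart. Of 12994 genes tested, those that averaged 1 FPKM or more across the 70 libraries, 181 were higher and 592 lower in 14-7-2, which is 1.39% and 4.56% of the genes tested and 5.95% together. At this criterion 649.7 calls are expected with no difference at all. None passed adjustment by the Benjamini-Hochberg method in limma (0 genes, beside the 773 at the unadjusted criterion), and the smallest adjusted p was 0.312, shared by 12 genes. The median difference over all tested genes was -0.01. For 11325 genes, 87.2% of those tested, the 95% interval of the difference lay within 0.5 on the log2 scale in both directions. Lower genes made up 76.6% of all calls. With a median ratio scaling of the libraries that share was 69.6%, and after quantile normalization it was 60.6%, with medians of all genes of 0.00 and 0.01. Only 3 called genes were higher by more than 1 on the log2 scale, all of them small non-coding RNAs (Snora75 at 2.87, p = 0.0492, Snora16a at 2.18, p = 0.0276, and Scarna13), against 33 that were lower by more than 1. The 2 Snora genes fall outside the naming rule and were named after their values were seen.

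**Figure D1:**
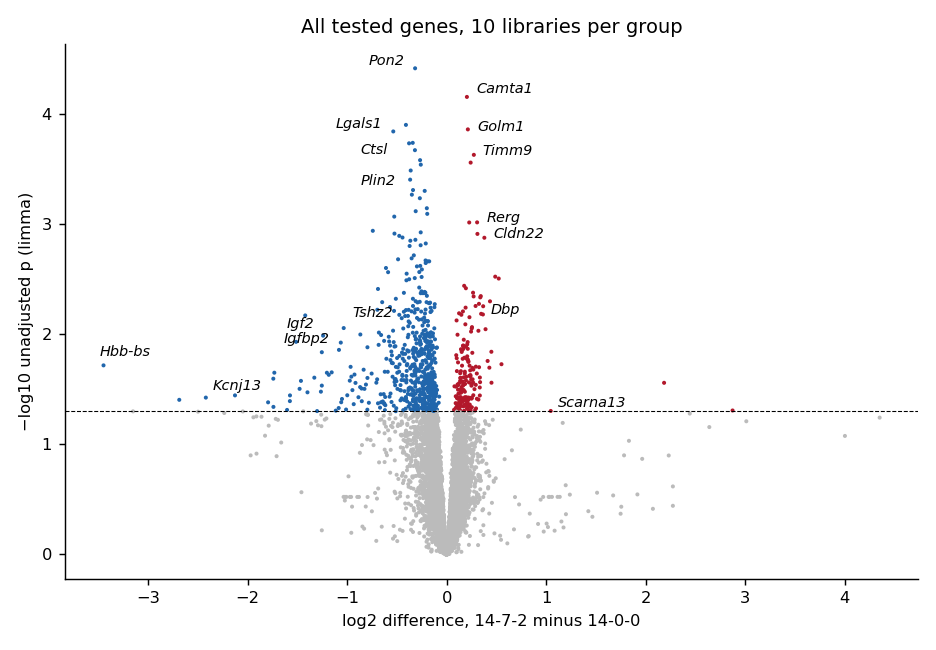
Log2 difference (horizontal axis, 14-7-2 minus 14-0-0) against −log10 of limma's unadjusted p (vertical axis) for the 12994 tested genes, with 181 higher genes in red, 592 lower genes in blue and the criterion as a dashed line. Blue points outnumber red ones, most called points lie within 0.5 of 0, and the far left holds choroid plexus and hemoglobin genes such as Kcnj13 and Hbb-bs.

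Before single genes are described, the tissue content of the libraries has to be given. Transthyretin (Ttr), the main secreted protein of the choroid plexus epithelium, lay at 25.6 FPKM in the lowest library of 14-0-0, at a median of 2225 and at 15643 in the highest. In 14-7-2 it lay at 27, 79.2 and 2198 FPKM in the lowest, median and highest library. The ranges overlap at the bottom, but 5 libraries of 14-0-0 lie above every library of 14-7-2. The sum of all 22 choroid plexus markers ran from 98.1 to 18780 FPKM (median 2750) in 14-0-0 and from 93.1 to 3591 FPKM (median 177) in 14-7-2. Of the 20 markers tested, 7 were lower and 0 higher in 14-7-2, and all 20 had a negative difference, with a median of -1.76. The 7 were Otx2 (-1.73), Trpv4 (-1.40), Kcnj13, Col8a1, Clic6 (-1.74), Prlr (-1.60) and Kl (-1.11), which code for a transcription factor, channels, a collagen and receptors of this epithelium, among other proteins. Ttr itself was at -2.50 and was not called (p = 0.0505). With each library's score for these markers, the mean of their centred log2 values, as a term of the fit, 104 of the 181 higher genes and 217 of the 592 lower genes were still called, and in all 210 genes were higher (1.62%) and 509 lower (3.92%), or 5.53% together. For most lists that follow, the counts from that fit are given too. Among the 14-7-2 libraries, replicate 9 had the largest choroid plexus sum and the lowest score for neocortex markers. Without it 325 genes were higher in place of 181.

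**Figure D2:**
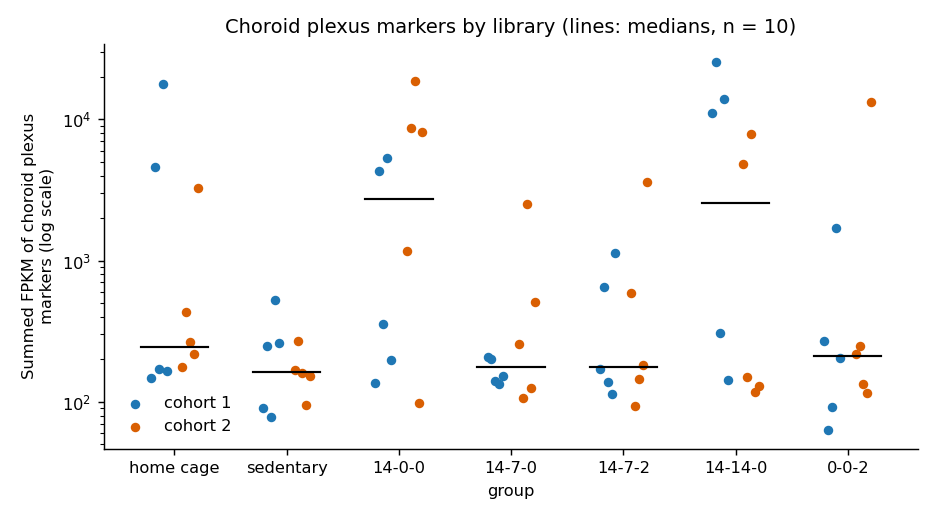
Summed FPKM of the choroid plexus markers (vertical log axis) in each of the 70 libraries by group, with harvest cohorts in blue and orange and group medians as lines. The 14-0-0 libraries spread from 98.1 to 18780 FPKM, whereas 9 of the 10 libraries of 14-7-2 sit at or below 1124 FPKM and replicate 9 is at 3591.

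Pon2, Lgals1, Myl12a, Ctsl and Decr1 were among the 12 leading genes that were lower after the interrupted schedule. Pon2, which codes for the antioxidant lactonase paraoxonase 2 (mm10 chr6:5264147-5298455, minus strand), had the smallest p of all genes. Its FPKM were 33.5, 36.4 and 41.7 in the lowest, median and highest library of 14-0-0 and 25.4, 29.0 and 34.2 in 14-7-2. In 9 of 10 libraries of 14-7-2 the value lay below every library of 14-0-0, and no library of 14-7-2 reached the 14-0-0 median. The difference was -0.32 (95% interval -0.44 to -0.19, limma p = 3.84e-05, Benjamini-Hochberg adjusted p = 0.312), and -0.25 (p = 0.00037) with the choroid plexus score in the fit.

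Lgals1, which codes for the glycan-binding protein galectin-1 (chr15:78926725-78930465, plus strand), showed a similar separation. It ran from 18.2 through a median of 24.0 to 33.5 FPKM in 14-0-0 and from 11.6 through 16.8 to 20.2 FPKM in 14-7-2, where 9 of 10 libraries lay below the lowest of 14-0-0. The difference was -0.54 (standard error 0.115, p = 0.000144). It was -0.25 within cohort 1 and -0.82 within cohort 2, with the same sign. The change of the difference between cohorts had a limma p of 0.0122, adjusted over all genes 0.138. Myl12a, a regulatory light chain of non-muscle myosin, fell from a median of 18.6 FPKM (15.5 to 25.1) in 14-0-0 to 14.2 FPKM (11.1 to 17.3) in 14-7-2, and 8 libraries of 14-7-2 lay below all of 14-0-0. Its exons overlap those of the near-identical neighbour Myl12b, so its value is uncertain.

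Among lysosomal genes, Ctsl, which codes for the protease cathepsin L, had a median of 57.8 FPKM (50.1 to 72.5) in 14-0-0 and of 46.6 FPKM (41.9 to 54.3) in 14-7-2, with 8 libraries of 14-7-2 below all of 14-0-0. Naaa, a lysosomal hydrolase of lipid amides, had medians of 19.8 FPKM (17.7 to 22.9) and 17.2 FPKM (14.3 to 19.3). The differences were -0.32 for Ctsl (p = 0.000213) and -0.26 for Naaa (p = 0.000288).

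A mitochondrial and a lipid droplet gene fell as well. Decr1, a reductase needed for the oxidation of unsaturated fatty acids, had a median of 7.86 FPKM (6.45 to 8.49) in 14-0-0 and of 6.23 FPKM (5.54 to 7.43) in 14-7-2. Plin2, a coat protein of lipid droplets, had medians of 3.76 FPKM (3.24 to 4.46) and 3.03 FPKM (2.35 to 3.58). Plin2 differed by -0.11 within cohort 1 and by -0.61 within cohort 2, and its 14-7-2 libraries lay below all of 14-0-0 in 7 of 10 cases.

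The other leading lower genes were Rab13, a small GTPase of junction traffic (-0.34), Cds1, an enzyme of phosphatidylinositol synthesis (-0.38), Hs6st2, a heparan sulfate sulfotransferase (-0.37), the calcium-binding S100a1 (-0.34) and the mitochondrial dehydrogenase Adhfe1 (-0.22). In all 12, between 5 and 9 libraries of 14-7-2 lay below the lowest library of 14-0-0. All 12 were still called with the choroid plexus score in the fit, with the neocortex score in the fit and without any 1 of the 20 libraries, where the highest p was 0.00123. They were also called in a joint fit of all 7 groups and by both Cyber-T tests. The sign was the same in both cohorts for all 12, and 10 were called within cohort 1 and 12 within cohort 2. Choice by the smallest p over these same libraries favours such outcomes, so they are no independent evidence. The folds of these genes ran from 0.689 to 0.858, so even the leading changes were small.

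Camta1, Golm1, Timm9 and Ak5 led the genes that were higher after the interrupted schedule. Camta1, which codes for a calmodulin-binding transcription activator of the brain (chr4:150917322-151861876, minus strand), had the smallest p among them. It ran from 43.3 through a median of 47.9 to 50.2 FPKM in 14-0-0 and from 49.3 through 53.9 to 61.3 FPKM in 14-7-2. All but 1 of the 14-7-2 libraries lay above every library of 14-0-0, and the difference was 0.20 (95% interval 0.12 to 0.29, limma p = 6.98e-05, Benjamini-Hochberg adjusted p = 0.312). Golm1, a membrane protein of the Golgi, had medians of 31.1 FPKM (29.7 to 34.3) in 14-0-0 and 36.9 FPKM (31.7 to 42.4) in 14-7-2, and 8 libraries of 14-7-2 lay above all of 14-0-0. Ak5, an adenylate kinase of neurons, had medians of 98.8 FPKM (93.8 to 118) and 116 FPKM (107 to 142). Timm9, a chaperone of protein import into mitochondria, rose by 0.27 (p = 0.000235), from a median of 21.2 FPKM (19.2 to 27.3) to 25.3 FPKM (24.4 to 29.2), with 3 libraries of 14-7-2 above all of 14-0-0.

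Further leading higher genes were Rerg, a Ras-like GTPase (0.31), Ccnk, which codes for cyclin K (0.23), Pkp2, a desmosome protein (0.31), Cldn22, a claudin (0.38), the pseudogene Tmem181c-ps (0.49), Srrm4, a splicing factor of neuronal microexons (0.18), Wbscr17, a glycosyltransferase-like gene (0.19), and Snrpa1, a spliceosome protein (0.26). All 12 leading higher genes had the same sign in both cohorts, and 9 were called within cohort 1 and 6 within cohort 2. All 12 were called with either score in the fit and without any 1 library. Their choice by the smallest p over the same libraries favours such outcomes too. Other tests did not call all 12 genes. In a joint fit of all 7 groups Ak5 (p = 0.139), Golm1 (p = 0.196), Cldn22 (p = 0.24) and Wbscr17 (p = 0.105) were not called. Srrm4 was not called by Cyber-T on FPKM (p = 0.0579) or on log2 values (p = 0.0553), nor was Tmem181c-ps by the latter (p = 0.214). The folds ran from 1.13 to 1.40. Exons of 9 of the 24 leading genes (Golm1, Timm9, Ak5, Cldn22, Srrm4, Snrpa1, Myl12a, Ctsl and Adhfe1) overlap exons of another gene in GENCODE, and reads of the partners cannot be told apart, since counting by strand is not stated. Among genes described below, the same limit holds for Scarna13, Dbp, Acvr2a, Kcnj3, Hsp90b1, Pdia6 and Pdia3. Tmem181c-ps can also share reads with the gene family that it resembles.

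**Figure D3:**
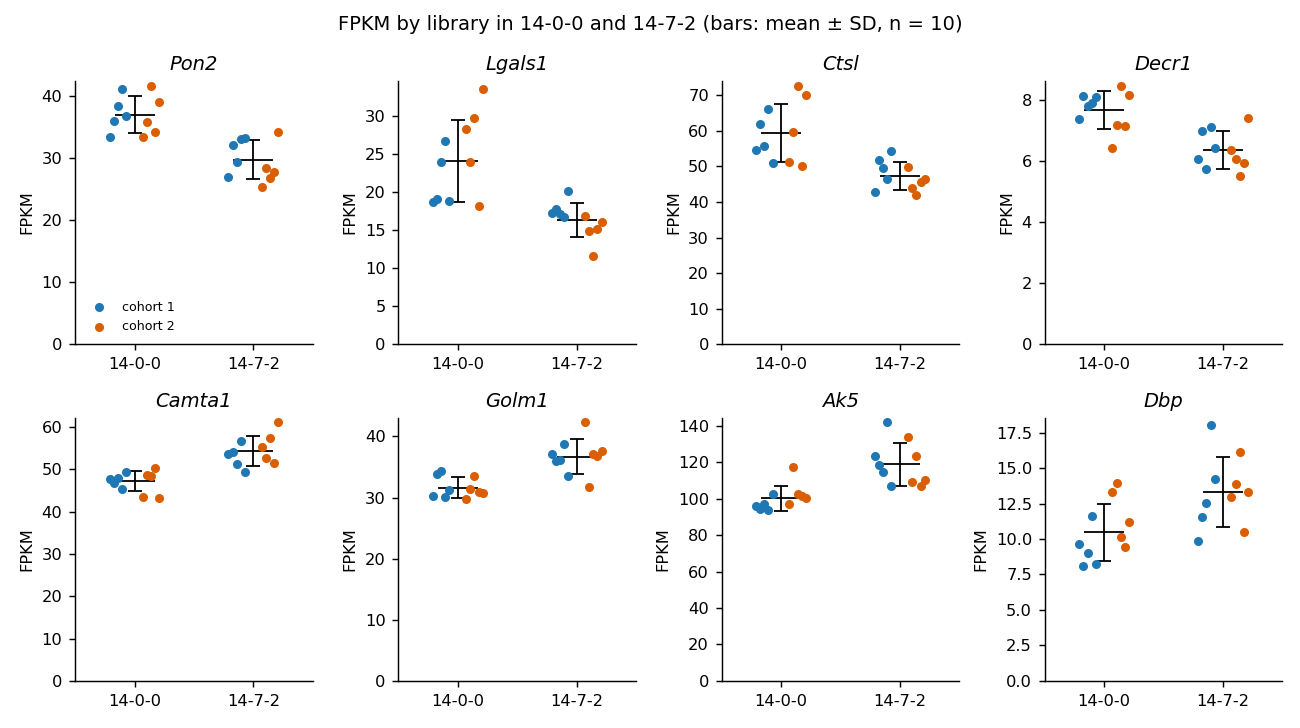
FPKM (vertical axes, starting at 0) of 4 leading lower genes, 3 leading higher genes and the clock gene Dbp in each library of 14-0-0 and 14-7-2, with cohort 1 in blue, cohort 2 in orange and bars for the mean ± SD (n = 10). For Pon2, Lgals1 and Camta1 9 of the 10 libraries of 14-7-2 lie beyond every library of 14-0-0, while for Dbp the groups overlap.

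No gene of the 12994 separated the groups fully. Only Camta1 and Tmem181c-ps had 9 libraries of 14-7-2 above all of 14-0-0, and only Pon2 and Lgals1 had 9 below. The genes of largest difference were of another kind. Hbb-bs, an adult beta globin, differed by -3.45 (p = 0.0192), with a median of 11.7 FPKM (0.00324 to 41.7) in 14-0-0 and of 0.00628 FPKM (0.00212 to 34.8) in 14-7-2. It shares reads with a near-identical copy, Hbb-bt, and reads can be split between them in different ways, so its level is uncertain. Defb11 (-2.69), Kcnj13 (-2.42), Wfdc2 (-2.13) and Col8a1 (-1.79) followed. All 4 genes lost their calls with the choroid plexus score in the fit, where their differences were between -0.33 and -0.08, and Kcnj13 and Col8a1 belong to the marker list. All 4 also lost them without 14-0-0 replicate 7, the library with the largest choroid plexus sum (p between 0.0734 and 0.0867). Among the symbols that the naming rule allows, the largest higher genes apart from Tmem181c-ps were Scarna13, a small Cajal body RNA (1.05, p = 0.0497), and Klk10, Tmem215 and Mndal at 0.55, 0.45 and 0.45. Scarna13 and Tmem215 lost their calls in that fit as well, at 0.88 (p = 0.128) and 0.43 (p = 0.0588). Scarna13 also lost the call when most of the 20 libraries were left out singly (highest p = 0.0929, without 14-7-2 replicate 7), and Tmem215 without 14-7-2 replicate 0 (p = 0.0583), 14-7-2 replicate 3 (p = 0.0521) or 14-0-0 replicate 5 (p = 0.0537). Klk10 and Mndal were called with the choroid plexus score in the fit but not in the joint fit of all 7 groups (p = 0.0567 and 0.082) or with the neocortex score in the fit (p = 0.11 and 0.208). Mndal shares exons with Ifi203.

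No gene in the lists of learning-induced genes passed the criterion. Of 17 immediate early transcription factors tested, including Fos, Egr1 and Npas4, 0 were called in either direction, against 1.39% and 4.56% of all genes, and their median difference was -0.00. The smallest p in the list was that of Nr4a2 (-0.23, p = 0.0611) and the differences ran from that value to 0.37 in Egr4. With the choroid plexus score in the fit 2 of the 17 were lower, Nr4a2 (p = 0.0175) among them, beside 3.92% of all genes. Of 25 activity-induced effector genes 0 were called and the median was -0.04. In the fit with the choroid plexus score 1 of the 25 was lower. Rasl11a (0.27, p = 0.0705) and Ptgs2 (0.14, p = 0.138) had the smallest p. The outermost 95% limits in these 2 lists were -1.18 and 1.29, and -0.83 and 0.57, so the spread leaves room for differences of such sizes in single members.

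Lists of receptors, neurotrophins and chromatin enzymes had 0 calls, where 5.95% of all genes were called in either direction, so in lists of this size a count of 0 lies near the background. Of 10 AMPA and NMDA receptor subunits 0 were called, 9 had a positive difference, and the median was 0.04. Of 12 GABA-A receptor subunits 0 were called, and 2 were lower with the choroid plexus score in the fit. Gabra3, at -0.25 (p = 0.0636), was 1 of these (p = 0.0232). None of 9 neurotrophins and receptors tested (0 calls), of 30 enzymes of histone acetylation and of H3K27 and H3K9 methylation (0 calls), of 23 cholesterol synthesis genes (0 calls) or of 15 glucocorticoid-responsive genes (0 calls) was called, and the medians of these 4 lists lay between -0.04 and 0.01. In the fit with the choroid plexus score 1 neurotrophin gene was lower and 1 histone enzyme gene higher, and the AMPA and NMDA receptor, cholesterol and glucocorticoid lists still had 0 calls. Fkbp5, a chaperone induced by glucocorticoids, was at 0.11 (p = 0.114), and Crebbp, a histone acetyltransferase, at 0.22 (p = 0.102).

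Acvr1c (chr2:58267453-58357895, minus strand), the gene on which the study turns, differed little between the schedules when the cohorts were pooled. It ran from 3.30 through a median of 4.76 to 6.37 FPKM in 14-0-0 and from 3.91 through 4.88 to 5.90 FPKM in 14-7-2, and the groups overlap over nearly their whole range. The difference was 0.00 (95% interval -0.23 to 0.23, limma p = 0.968, adjusted p = 1), and the permutation test of the mean gave p = 0.963, also after adjustment over 2 genes. Bdnf (chr2:109674700-109727007, plus strand), a gene with known induction by running, had medians of 22.5 FPKM (18.7 to 30.8) in 14-0-0 and 21.1 FPKM (19.6 to 25.7) in 14-7-2. Its difference was -0.12 (95% interval -0.30 to 0.06, limma p = 0.185, permutation p = 0.2, adjusted over 2 genes 0.399). With the choroid plexus score in the fit it was -0.21 (p = 0.0193). Exons of both genes overlap those of an antisense gene model in GENCODE, Gm13544 for Acvr1c and Gm45346 for Bdnf, from which reads cannot be told apart here.

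The list of 21 genes that the study names as raised in both schedules was chosen there on these same libraries, so likeness between the schedules is no independent evidence for them. Of the 21 genes 0 were called, beside 5.95% of all genes in either direction, so this count lies near the background. A positive difference was seen in 14, and the range was -0.12 (Bdnf) to 0.12 (Ppp1r1a) with a median of 0.01. The outermost 95% limits were -0.30 and 0.39, and Bdnf was the 1 gene lower with the choroid plexus score in the fit. Of 24 tested genes of the activin, TGF-beta and BMP pathway 0 were called, again near the background of 5.95%, with a median of -0.03. In the fit with the choroid plexus score 2 of them were lower, beside 3.92% of all genes. Smad1, a signal transducer of BMP receptors, was at 0.11 (p = 0.0858), and Id2, a target of BMP signalling, at -0.15 (p = 0.1).

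Within the harvest cohorts the differences were not those of the pooled fit. The harvest day and the set of libraries taken on it cannot be told apart. Acvr1c was lower in 14-7-2 in cohort 1, with means of 5.40 ± 0.959 FPKM (SD, n = 5) in 14-0-0 and 4.28 ± 0.493 FPKM in 14-7-2. In cohort 2 it was higher in 14-7-2, with 4.31 ± 0.622 FPKM in 14-0-0 and 5.41 ± 0.495 FPKM in 14-7-2. The differences were -0.32 and 0.33 (exact permutation p = 0.0714 and 0.0238, adjusted over 4 tests 0.0952 and 0.0476). The group by cohort interaction was 0.65 (limma p = 0.00166, adjusted over all genes 0.0948). For Bdnf the cohort 1 means were 26 ± 3.7 FPKM in 14-0-0 and 21.1 ± 1.5 FPKM in 14-7-2. In cohort 2 they were 21.5 ± 3.75 and 22.3 ± 2.11 FPKM, so the difference was seen in the first cohort (-0.29, exact permutation p = 0.0238) and not in the second (0.06, exact permutation p = 0.603), with an interaction of 0.35 (limma p = 0.0325, adjusted 0.193).

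These genes were part of a wide pattern. The interaction had an unadjusted p under 0.05 in 2835 genes, 21.8% of those tested, where 649.7 are expected with no interaction, although 0 passed adjustment in limma and the smallest adjusted p was 0.0916. Without any 1 library the number ran from 2183 to 3275. With the choroid plexus score in the fit it was 4118 genes (31.7%), and 825 of them passed adjustment (smallest adjusted p 0.0340). Without that score it was positive (14-7-2 relatively higher in cohort 2) in 1886 genes and negative in 949. The 2 cohort differences had opposite signs in 97.0% of these genes, against 66.4% of all genes. Selection of genes by their interaction favours opposite signs, so this share is a description only. Within cohort 1, 751 genes were higher (5.78%) and 1359 lower (10.5%) in 14-7-2, and within cohort 2 the counts were 857 (6.6%) and 554 (4.26%). Only 29 genes were called with 1 sign in both cohorts, and 210 were called with opposite signs. The cohorts differed most within 14-0-0, where 2791 genes had an unadjusted p under 0.05 between cohorts (841 higher and 1950 lower in cohort 2). Within 14-7-2 the number was 804, and within the other 5 groups it lay between 124 and 333. None of the genes passed adjustment between cohorts within 14-0-0 (0 genes, smallest adjusted p 0.115) or within 14-7-2 (0 genes, smallest adjusted p 0.506).

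Named genes show the size of the pattern. Acvr2a, a type II activin receptor that partners with type I receptors, had cohort 1 means of 11.8 ± 1.53 FPKM in 14-0-0 and 9.59 ± 1.08 FPKM in 14-7-2, and cohort 2 means of 9.06 ± 0.905 and 11.7 ± 0.601 FPKM. Npy1r, a receptor of neuropeptide Y, had 17.6 ± 0.840 and 14.1 ± 3.59 FPKM in cohort 1 and 14.1 ± 0.959 and 19 ± 1.75 FPKM in cohort 2. For Npy1r no library of 14-0-0 reached the lowest 14-7-2 value in cohort 2, 16.4 FPKM. Kcnj3, a G protein-gated potassium channel subunit, differed by -0.25 (limma p = 0.00685) and 0.27 (p = 0.00658) in the cohorts. Mef2c, a neuronal transcription factor that is also in the neocortex list, differed by -0.46 (p = 0.00908) and 0.31 (p = 0.0016). The RNA helicase gene Ddx5 differed by -0.38 and 0.25, and Hnrnph1, a splicing regulator, by -0.24 and 0.26. All genes of this paragraph were chosen after their values were seen. Among the 8 of smallest interaction p that the naming rule allows, Dpcd and Vamp5 went the other way. Dpcd differed by 0.28 in cohort 1 and by -0.43 in cohort 2. In all, 10 of the 21 genes raised in both schedules had an interaction p under 0.05 (7 lower within cohort 1 and 7 higher within cohort 2), as had 7 of the 24 activin, TGF-beta and BMP genes and 6 of 11 dentate gyrus granule cell markers, beside 21.8% of all genes. The dentate markers had a median difference of -0.33 in cohort 1 and of 0.30 in cohort 2.

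**Figure D4:**
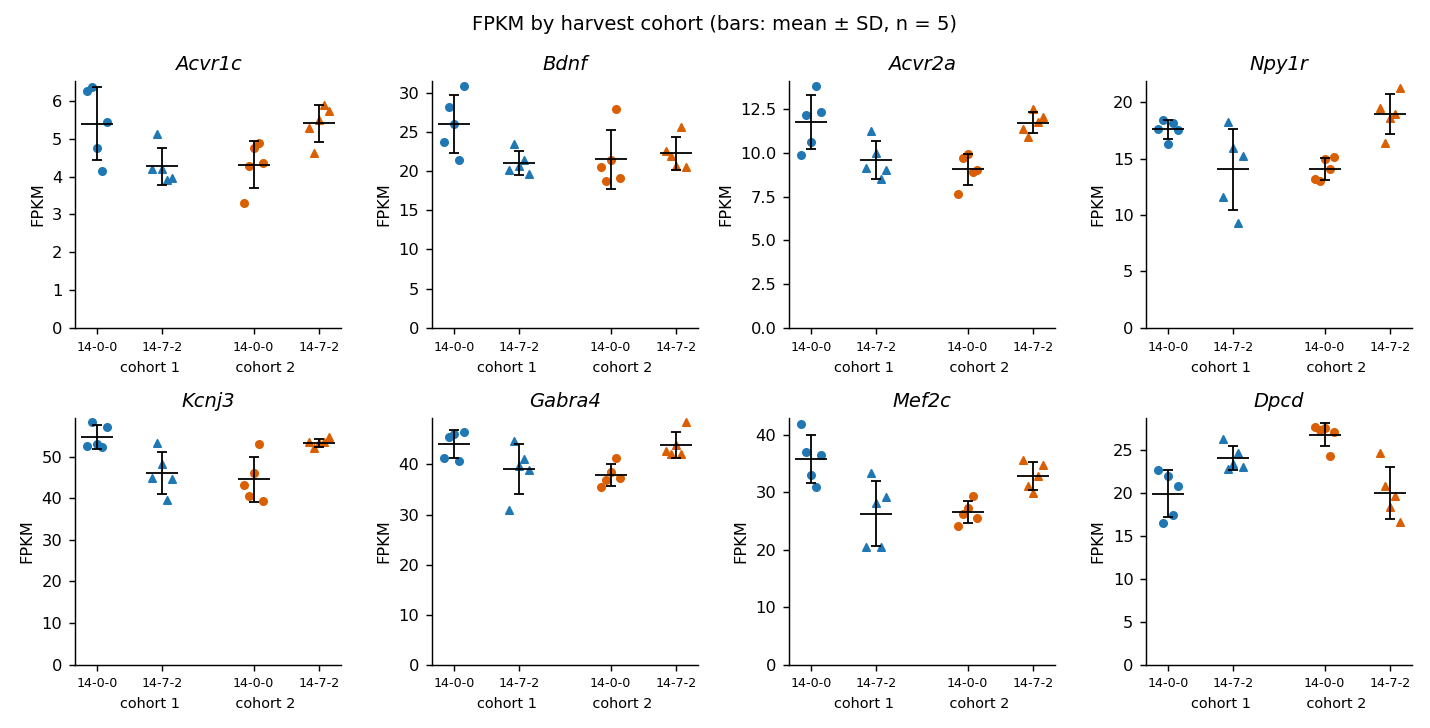
FPKM (vertical axes, starting at 0) of 8 genes in 14-0-0 (circles) and 14-7-2 (triangles) within cohort 1 (blue) and cohort 2 (orange), with bars for the mean ± SD (n = 5). For 7 of the genes, such as Acvr1c and Acvr2a, the 14-7-2 mean is below that of 14-0-0 in cohort 1 and above it in cohort 2 (for Bdnf by only 0.06 on the log2 scale in cohort 2), whereas Dpcd goes the opposite way.

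The genes of this pattern differed in transcript length. The longest annotated transcript had a median of 4572 bases in genes with a positive interaction and of 2209 bases in genes with a negative one, beside 3179 bases in all tested genes. By comparison, genes higher in 14-7-2 over both cohorts had a median of 3397 bases and genes lower in 14-7-2 one of 2625 bases. Lengths were found for at least 98.6% of each set, and the part of length in these differences was not tested. Of the genes called over both cohorts, 176 of the 181 higher genes and 574 of the 592 lower genes had the same sign in both cohorts, a share that calling over pooled cohorts favours, and 92 of the 773 had an interaction p under 0.05.

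Clock genes differed in part. In mouse tissues the output gene Dbp and the repressors Per2 and Ciart peak around the evening, opposite to Npas2 and the other activators. Of 14 evening clock genes 3 were higher and 0 lower (background 1.39% and 4.56%), with a median over the list of 0.05. Dbp ran from 8.09 through a median of 9.90 to 13.9 FPKM in 14-0-0 and from 9.88 through 13.2 to 18.1 FPKM in 14-7-2 (0.35, p = 0.00652). Per2 had medians of 5.51 FPKM (4.59 to 6.15) and 6.31 FPKM (5.03 to 7.50), with 6 libraries of 14-7-2 above all of 14-0-0 (0.18, p = 0.0163). Ciart had medians of 3.02 FPKM (2.20 to 5.18) and 3.74 FPKM (2.97 to 5.11) (0.28, p = 0.0493). For all 3 genes the difference was positive in both cohorts (0.49 and 0.21 for Dbp, 0.18 and 0.18 for Per2, 0.43 and 0.13 for Ciart). Dbp and Per2 were still called with the choroid plexus score in the fit and without any 1 library. Ciart was not called in that fit (p = 0.0615) or without 14-0-0 replicate 1 (p = 0.098). Of 5 morning clock genes, 1 was lower (Npas2, -0.22, p = 0.0268, and p = 0.0559 without 14-0-0 replicate 0). Sedentary mice had still higher medians, 14.4 FPKM for Dbp, 7.18 for Per2 and 4.96 for Ciart, so 14-7-2 lay between 14-0-0 and sedentary for all 3.

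The clock activators bind the E-box CACGTG, a palindrome that reads alike on both strands. It occurs within the 250 bases before the start of 6.02% of 32851 RefSeq promoters (GRCm38.p6). Of the 12 evening clock genes matched to a promoter, 5 hold it there, a share that the choice of clock genes favours. Ciart holds 3 copies and is shown for that reason, with the E-boxes in capitals, from 130 to 31 bases before the start (chr3:95882259-95882358, minus strand), 5′ to 3′. Dbp holds none in this window, and Per2 was not matched.
Ciart: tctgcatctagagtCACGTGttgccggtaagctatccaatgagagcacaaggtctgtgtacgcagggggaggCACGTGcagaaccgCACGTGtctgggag

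Several chaperones of the endoplasmic reticulum were lower in 14-7-2. These proteins fold secreted and membrane proteins and are induced together when unfolded protein accumulates. Of 22 genes tested 7 were lower and 0 higher in 14-7-2, beside 4.56% and 1.39% of all genes, 20 had a negative difference, and the median was -0.11. Hsp90b1, which codes for the chaperone GRP94, ran from 95.4 through a median of 127 to 140 FPKM in 14-0-0 and from 93.2 through 104 to 142 FPKM in 14-7-2 (-0.21, p = 0.0134). P4hb, a disulfide isomerase, had medians of 47.5 FPKM (44.3 to 53.0) and 45.0 FPKM (40.3 to 47.1), with 4 libraries of 14-7-2 below all of 14-0-0 (-0.12, p = 0.0111). Canx, the lectin chaperone calnexin, was at -0.12 (p = 0.0244) and Pdia6, another disulfide isomerase, at -0.17 (p = 0.0252). The remaining called members were Pdia3, Calr and Dnajc3, and the main chaperone Hspa5 was not called (-0.22, p = 0.0686). The groups overlap for each of these genes. Hsp90b1 and P4hb were called without any 1 library, whereas the other 5 each lost the call without 1 library (14-0-0 replicate 0 for Canx, 14-7-2 replicate 8 for Pdia6 and Calr, 14-7-2 replicate 0 for Pdia3 and 14-0-0 replicate 7 for Dnajc3, p between 0.0503 and 0.0959). Sedentary medians were 124 FPKM for Hsp90b1 and 56.8 FPKM for Pdia6. Of the 22, 0 were called in either direction with the choroid plexus score in the fit, and the median was then -0.04. Summed markers of the choroid plexus, a secretory epithelium, were higher in several 14-0-0 libraries (sums given above). The part of choroid plexus content in this list was not tested beyond that fit. The list's median was -0.02 in cohort 1 and -0.19 in cohort 2.

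The ER stress element consists of CCAAT and CCACG with 9 bases of any kind between them, at which ATF6 and NF-Y bind. The list was drawn up from ER chaperones and stress genes, which favours this element, so its share in the list is no independent evidence. Searched on both strands, it occurs within the 250 bases before the start of 0.113% of RefSeq promoters. Of the 20 list members matched to a promoter 9 hold it, as do 5 of the 7 called members (Hsp90b1, Pdia6, Calr, Canx and Dnajc3), while P4hb and Pdia3 have no match in this window. Hspa5, Creld2, Syvn1 and Ero1lb hold it and were not called. A match is a description of the letters and not a measured site. The stretches around the element in the 5 called genes are printed 5′ to 3′ on the strand of the gene, with the element in capitals, which in Calr and in the second copy of Hsp90b1 lies on the opposite strand. They are chr10:86705515-86705674 (minus strand) for Hsp90b1, chr12:17266439-17266538 (plus) for Pdia6, chr8:84847022-84847121 (minus) for Calr, chr11:50325764-50325863 (minus) for Canx and chr14:118937782-118937881 (plus) for Dnajc3.
Hsp90b1: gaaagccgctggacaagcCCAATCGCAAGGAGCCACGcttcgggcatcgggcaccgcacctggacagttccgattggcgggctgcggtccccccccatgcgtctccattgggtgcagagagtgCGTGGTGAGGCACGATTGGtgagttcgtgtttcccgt
Pdia6: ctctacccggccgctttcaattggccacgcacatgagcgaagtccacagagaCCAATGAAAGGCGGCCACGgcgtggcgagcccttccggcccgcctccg
Calr: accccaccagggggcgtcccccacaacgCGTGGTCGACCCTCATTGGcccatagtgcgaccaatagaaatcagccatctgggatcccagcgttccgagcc
Canx: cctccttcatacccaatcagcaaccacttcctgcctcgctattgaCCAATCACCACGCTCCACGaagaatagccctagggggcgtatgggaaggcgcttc
Dnajc3: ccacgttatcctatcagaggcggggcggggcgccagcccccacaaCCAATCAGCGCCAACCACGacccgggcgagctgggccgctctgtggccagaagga

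Some exercise-linked factors were lower as well. Of 20 tested growth and metabolic factors 6 were lower and 0 higher in 14-7-2 (background 4.56% and 1.39%), with a median of -0.07. Ctsb, which codes for cathepsin B, a protease that muscle releases with running, had medians of 139 FPKM (124 to 154) in 14-0-0 and 126 FPKM (108 to 133) in 14-7-2 (-0.18, p = 0.00217). Its difference was -0.03 in cohort 1 and -0.32 in cohort 2. Ldhb, the lactate dehydrogenase subunit that favours the conversion of lactate to pyruvate, had medians of 324 FPKM (294 to 389) and 299 FPKM (227 to 343) (-0.23, p = 0.00706). Clu, the lipid-carrying protein clusterin, was at -0.28 (p = 0.0143), and Kdr, the endothelial VEGF receptor, at -0.31 (p = 0.0111). Igf2, a growth factor that choroid plexus and meninges make in the adult brain, had medians of 36.0 FPKM (11.3 to 165) and 12.8 FPKM (8.48 to 50.3) and Igfbp2, its binding protein, 26 FPKM (10.1 to 146) and 13.5 FPKM (8.81 to 19.2). Their differences were -1.24 (p = 0.0103) and -1.08 (p = 0.0139), and with the choroid plexus score in the fit -0.35 (p = 0.01) and -0.41 (p = 0.146). Of the list, 5 genes were lower in that fit. Igf1r, the receptor of insulin-like growth factor, was the highest member at 0.12 and was not called.

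After the leading genes were seen, lists of lysosomal genes and of mitochondrial fatty acid and branched-chain amino acid oxidation genes were drawn up, so their counts are descriptions only. Of 45 lysosomal genes 14 were lower and 0 higher, beside 4.56% and 1.39% of all genes, with a median of -0.12. Beside Ctsl and Naaa these included Gm2a, the activator of ganglioside breakdown (16.2 FPKM in the median 14-0-0 library and 14.2 in that of 14-7-2, -0.27, p = 0.000581), and Ctsz, a carboxypeptidase (-0.33, p = 0.00192). Of the 45 genes 6 were lower and 1 higher with the choroid plexus score in the fit, beside 3.92% and 1.62% of all genes, and the cohort medians were -0.02 and -0.21. Of 39 oxidation genes 16 were lower and 0 higher, against the same background, with a median of -0.17. Decr1 and Adhfe1 were followed by Acadsb, an acyl-CoA dehydrogenase of the isoleucine route (-0.20, p = 0.000716), Aldh6a1, a dehydrogenase of the valine route (-0.20, p = 0.000806), and Acadl, a long-chain acyl-CoA dehydrogenase (-0.25, p = 0.00258). Adhfe1 is counted in the 39 and in the 16, although it is not a standard enzyme of either pathway. Of the 39 genes 8 were lower with the choroid plexus score in the fit (3.92% of all genes), and the cohort medians were -0.11 and -0.22, so both cohorts had a negative median. Of 37 mitochondrial complex I subunits 2 were lower (Ndufa3 at -0.30 and Ndufa1 at -0.24) and 0 higher, and of 77 ribosomal protein genes 3 were lower (Rpl31 at -0.21, Rpl5 at -0.11 and Rpl23 at -0.16) and 0 higher, near or below the background of 4.56%. The numbers lower with the choroid plexus score in the fit were 3 and 5. Among 17 heat shock and cold-inducible genes 1 was higher, Rbm3, a cold-inducible RNA-binding protein (0.17, p = 0.0496), which was not called with the choroid plexus score (p = 0.0707) or without 14-0-0 replicate 4 (p = 0.0936), and 0 were lower.

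**Figure D5:**
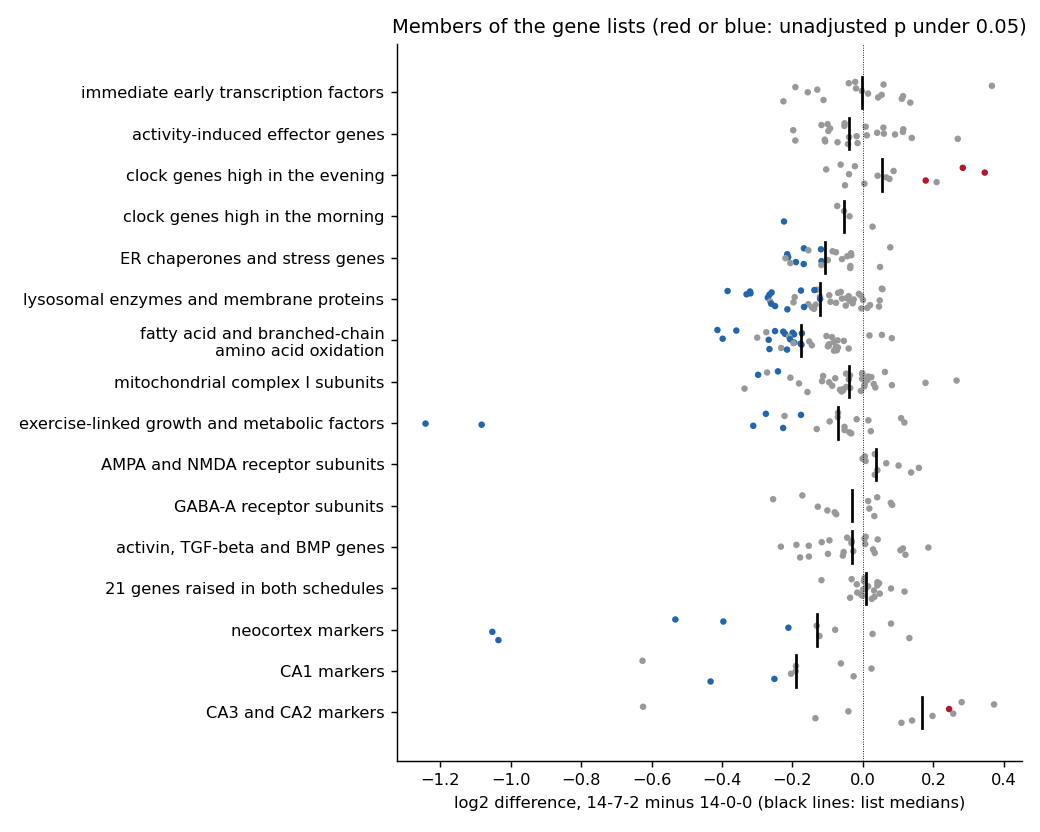
Log2 difference (horizontal axis, 14-7-2 minus 14-0-0) of each tested member of 16 gene lists, with called members in red (higher) or blue (lower), others in grey, and list medians as black lines. Medians of the oxidation, lysosomal and ER chaperone lists lie at -0.17, -0.12 and -0.11, whereas those of the immediate early, AMPA and NMDA receptor and 21-gene lists lie within 0.04 of 0.

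Markers of other cell types are given beside the same background, 4.56% of all genes lower and 1.39% higher. Of 14 meningeal fibroblast markers 2 were lower (Igf2 and Pcolce) and 0 higher, 13 had a negative difference, and the median was -0.44, with summed levels of 37.9 to 296 FPKM in 14-0-0 and 30.4 to 118 FPKM in 14-7-2. Of 13 ependymal and cilium markers 3 were lower (Mia, Meig1 and Tekt1) and 0 higher, all 13 had a negative difference, and the median was -0.36. Of these lists, 1 meningeal and 0 ependymal markers were lower with the choroid plexus score in the fit. The lists of 16 oligodendrocyte, 14 microglia, 8 neurogenesis, 11 thalamus and 11 dentate gyrus markers had 0 calls each. Of 14 astrocyte markers 1 was lower (Slc1a3, a glutamate transporter, -0.13, p = 0.0278), of 12 endothelial markers 2 (Pecam1 at -0.22 and Itm2a at -0.20), of 12 oligodendrocyte precursor markers 1 (Bmp4 at -0.45) and of 5 red blood cell markers 1 (Hbb-bs), with 0 higher in each. All 12 endothelial markers had a negative difference, with a median of -0.11. In the fit with the choroid plexus score 3 astrocyte, 2 endothelial, 2 precursor and 1 red blood cell markers were lower, beside 3.92% of all genes.

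Neuronal region markers were uneven. Of 11 neocortex markers 5 were lower and 0 higher (background 4.56% and 1.39%), among them Tshz2, with medians of 4.84 FPKM (3.37 to 15.7) in 14-0-0 and 2.41 FPKM (0.732 to 8.87) in 14-7-2 (-1.03, p = 0.00878), Cplx3 (-0.53, p = 0.0118), Ctgf (-0.40) and Nxph3 (-1.05). The list was not uniform, and 3 members had a positive difference, Tbr1 (0.13), Cux2 (0.08) and Rorb (0.03). Fezf2 (-0.13), Rprm (-0.12) and Mef2c (-0.08) were negative and not called either. The summed level of the list was 96.1 to 148 FPKM in 14-0-0 and 85.3 to 144 FPKM in 14-7-2. Of 9 CA1 markers 2 were lower, among them Wfs1 (-0.43), and 8 had a negative difference, with a median of -0.19. The lowest of them, Dcn (-0.63, not called), is also in the meningeal list. Of 13 inhibitory neuron markers 3 were lower (Vip at -0.32, Lamp5 at -0.21 and Pvalb at -0.23). Of 10 CA3 and CA2 markers 1 was higher, Cpne4 (0.24, limma p = 0.00945). In that list 7 had a positive and 3 a negative difference, with a median of 0.17. With the neocortex score in the fit none of the CA1 (0 genes) and inhibitory markers remained lower (0 genes). Lamp5 belongs to both the inhibitory and the neocortex list, so it is counted in both and is part of that score. With the choroid plexus score 4 CA1, 3 inhibitory and 4 neocortex markers were lower and 2 CA3 and CA2 markers higher. Defining CA1 markers such as Wfs1 were present throughout, between 35.2 and 119 FPKM. Members of the neocortex list did not all move together, and the part of neocortex content in the calls was not tested beyond these fits.

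Sedentary mice that were trained without running place the leading genes. Both comparisons share the sedentary libraries, and sedentary replicate 6 stands apart, with the lowest sum of the 21 genes (330 FPKM against a median of 1526 in its group), so values without it are given too. The leading genes were chosen on a contrast of these same 14-0-0 and 14-7-2 libraries, so their places are a description. Of the 12 leading lower genes 7 were called in 14-0-0 against sedentary and 3 in 14-7-2 against sedentary (11 and 0 without replicate 6), beside 9.15% and 4.39% of all genes (10.3% and 3.58% without it). Pon2 was at 0.27 (p = 0.000271) in 14-0-0 and -0.05 (p = 0.502) in 14-7-2, Ctsl at 0.31 (p = 0.00123) and -0.01 (p = 0.927), and Decr1 at 0.26 (p = 0.00022) and -0.00 (p = 0.95). Of the 12 leading higher genes 2 and 0 were called against sedentary (6 and 1 without replicate 6). Camta1 without replicate 6 was at -0.17 (p = 0.000829) in 14-0-0 and 0.03 (p = 0.507) in 14-7-2. Distances to 14-7-2 and to 14-0-0 were taken between group means of log2(FPKM + 0.1). In 8 of 12 lower and 7 of 12 higher genes the sedentary level lay nearer to 14-7-2 (9 and 8 without replicate 6). The level of 14-7-0, mice that ran and then paused without a second access, lay nearer to 14-7-2 in 7 and 2. Acvr1c was above sedentary in both schedules, at 0.54 (p = 0.00988) in 14-0-0 and 0.55 (p = 0.00735) in 14-7-2, and at 0.40 and 0.41 without replicate 6.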

How the data were processed

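RNA from 70 dorsal hippocampus libraries was measured, of which the 20 of 14-7-2 and 14-0-0 were compared. Groups and harvest cohorts were taken from the labels. The deposited values are FPKM per gene symbol. The authors aligned single-end reads with ELAND and Bowtie, kept unique alignments and took FPKM from the Tuxedo tools. The submitters' processing notes name Bowtie, Cuffnorm and mm10, without versions, and which scaling Cuffnorm applied is not given in the sources used here. FPKM depend on the annotated length, on the mapped total and on how reads shared between copies are split.

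Values were transformed as log2(FPKM + 0.1), so fold changes are on that scale and understate changes of low genes. Of 24346 genes, 12994 averaged 1 FPKM or more across the 70 libraries and were tested by limma 3.58.1 in R 4.3.3 (two-sided, trend, no covariates). Of these, 773 were called at an unadjusted p under 0.05. The labels do not say whether a library is 1 animal or a pool, so p-values measure the spread between libraries. A permutation test with 100000 resamples (both cohorts) or an exact permutation test (within a cohort) was used for Acvr1c and Bdnf (scipy, two-sided). The score of a marker list is the mean of its genes' centred log2 values. Motif searches used RefSeq promoters of GRCm38.p6, and positions and lengths come from GENCODE vM21. The tests were tested on simulated data.

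The contrast, the 33 gene lists and the tests were chosen with earlier results of these data known, and 2 further lists and 2 alternatives were added after the values of this contrast were seen. Named genes are Acvr1c, Bdnf, the 12 of smallest p and the 5 of largest difference per direction among called genes, up to 4 called members per list and direction (or the 2 of smallest p), and the study's 21 genes. Symbols starting with Mir, Snor, Gm plus a digit or LOC, or ending in Rik, were left out. Hspa5, the genes beyond the limit of 4 in a list, and the genes described for their values by cohort were named after their values were seen.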

Additional observations from a re-analysis of the deposited data

Results flagged for a closer look

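Of 104 groups of 10 libraries checked (named genes and list scores), 13 held a library far outside the others by Dixon's test, where 5.2 are expected by chance. In 14-0-0 these were Ak5 in replicate 6 (118 FPKM, others at most 103), and Scarna13 (0 FPKM, others at least 0.412) and Hbb-bs (0.00324 FPKM, others at least 4.95) in replicate 1, the library of lowest relative depth. In 14-7-2 replicate 9, which also had the largest choroid plexus sum of its group, Pkp2 (20.9 FPKM), Snrpa1 (18.1 FPKM), Defb11 (21.4 FPKM) and Col8a1 (5.12 FPKM) were high, and the scores of microglia (-0.39) and red blood cell markers (-2.57) were low. Cldn22 was high in 14-7-2 replicate 3 (5.30 FPKM), where the thalamus score was 1.83, and Klk10 (2.81 FPKM) and the CA3 and CA2 score (0.593) were high in replicate 5.

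The difference between the schedules differed between the 2 cohorts, tested as an interaction in limma, in 5 of 35 named genes at an unadjusted p under 0.05. As cohort 2 minus cohort 1 it was 0.65 for Acvr1c, 0.35 for Bdnf, -0.38 for Myl12a, -0.56 for Lgals1 and -0.50 for Plin2. Adjusted over the 35 genes, Acvr1c and Plin2 (both 0.029) passed and the other 3 did not. Most of the 35 genes were chosen on this same contrast. Adjusted over all genes tested, neither Acvr1c (0.0948) nor Plin2 (0.0916) passed. The last 3 genes had a negative difference in both cohorts, whereas Acvr1c changed sign.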

How the results depend on the processing

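The counts of called genes depend on the processing. The 12 leading lower genes were called in every alternative over both cohorts that tested them, whereas 6 of the 12 leading higher genes lost the call in the joint fit of all 7 groups or by Cyber-T. Choice of the leading genes by the smallest p over the same libraries favours keeping the call. With no filter on low values 319 genes were higher and 889 lower, and with a minimum mean of 5 FPKM 357 were lower, where fewer genes are tested. Higher genes numbered 282 after quantile normalization, 88 in a joint fit of all 7 groups, 107 by Cyber-T applied to FPKM, 111 by Cyber-T applied to log2 values, and 341 with the neocortex score in the fit, which was added after the data were seen. At an unadjusted p under 0.01, 34 were higher and 118 lower. Cohort 1 alone gave 751 and 1359, and cohort 2 alone 857 higher. Acvr1c was -0.32 in cohort 1 alone, the reverse of its value over both, and 0.33 in cohort 2 alone, and Bdnf was -0.29 in cohort 1 alone and -0.21 with the choroid plexus score in the fit. Beyond the construction of each setting, the cause was not tested. Leaving out 1 library gave 132 to 325 higher and 410 to 821 lower genes, -0.05 to 0.05 for Acvr1c, -0.15 to -0.07 for Bdnf, 2183 to 3275 genes with a cohort interaction and 0 genes after adjustment each time, and the largest move in higher genes came without 14-7-2 replicate 9. With the choroid plexus score in the fit 825 genes had an adjusted cohort interaction under 0.05, against 0 without it, and the cause was not tested. Same-numbered libraries correlated between -0.41 and 0.52 (4 of 10 pairs over 0.1, 2 of 10 best with their own number). Cohort differences were not removed first, so these values cannot decide whether the numbers pair the samples. With a replicate block 234 genes were higher and 708 lower, 0 after adjustment, and Acvr1c was at 0.00 and Bdnf at -0.12. Depth is unknown, so differences in low genes are the least certain.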
